A study of Rattus norvegicus with 4 samples.

Results

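The genes described here build the lipids from which oligodendrocytes make myelin. They comprise 38 genes of cholesterol synthesis and its control, of fatty acid synthesis, desaturation and elongation, and of the synthesis of myelin sphingolipids. The genes were picked by name for their place in these pathways, and all 38 are listed among the 17327 gene symbols in the deposited counts. They were compared between 2 control libraries and 2 libraries from Sox10-deficient clones of OLN93, an oligodendroglial cell line from rat that became immortal spontaneously. In clones A and B, Sox10 had been inactivated by CRISPR/Cas9 with a different guide RNA in each. The controls were OLN93 cells that the sample titles give as biological replicates and the study's methods as clones. Each Sox10-deficient library thus stands for a single clone, and traits of a clone and the loss of Sox10 cannot be told apart beyond what both clones share. Cells of both groups were grown in DMEM with fetal calf serum, a medium that itself carries cholesterol and fatty acids.

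Myelin is unusually rich in cholesterol, galactolipids and very long fatty acids, and oligodendrocytes make most of these lipids themselves. Cholesterol is built from acetyl-CoA through mevalonate to farnesyl diphosphate and squalene, and squalene is then turned into cholesterol in many steps. The transcription factors Srebf1 and Srebf2 (SREBP) raise these genes and those of fatty acid synthesis when membrane sterol is low. Scap carries the SREBP precursors out of the endoplasmic reticulum, and the Insig proteins hold them back. Sox10 is the transcription factor that keeps the oligodendroglial lineage and drives myelin genes.

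Library totals ranged from 60951 deposited counts in control 1 to 104017 in control 2, so that values of single genes rest on few reads. These totals lie far below the reads per library that the study's methods describe, for a reason not given in the sources used here, so that depth below means that of the deposited counts. A level of 3 counts, taken as the floor of detection, stood for 29.1 to 48.0 CPM depending on the library (CPM being counts per M counts, scaled by TMM), which covers counting error only. Sox10 had 28 and 64 counts in controls 1 and 2, and 0 and 14 counts in clones A and B. Its log2 fold change was -2.74 (standard error, SE, 0.62, edgeR adjusted p = 0.0172). The clones differed, and this value was -1.76 without clone A (adjusted p = 0.0959 in edgeR) and -8.51 without clone B, where the remaining clone is at 0 and the size depends on the fit. The adjusted p was 0.125 with the replicate number as a block in edgeR, and rounded to 1 in DESeq2. The call on the targeted gene by the adjusted p thus did not hold without clone A, with the block or in DESeq2. In edgeR it held with DESeq2's size factors (adjusted p = 0.0239), with library totals (0.00299) and without the filter on low counts (4.05e-06). By the unadjusted p it held with the block but not in DESeq2. Of 12 marker genes of the oligodendroglial lineage, 11 had counts and Mag was at 0, with summed levels of 2656 to 2909 CPM in the controls and 1699 to 1859 CPM in the clones. This sum includes Sox10 itself and Cnp, which had 991 and 659 CPM in the controls and 407 and 226 CPM in clones A and B. Cspg4, a marker of progenitors, was higher in both clones than in both controls, with 256 and 300.5 CPM in the controls and 674 and 408 CPM in the clones, and Pdgfra had 368 CPM in each control and 360.1 and 498 CPM in the clones. Markers of other cell types were low except for those of Schwann cells and fibroblasts. Of 6 astrocyte markers 2 had counts, and the sums were 0 to 16.0 CPM in the controls and 11.6 to 45.3 CPM in the clones, with Aqp4, Aldh1l1, Slc1a2 and Slc1a3 at 0. Of 5 neuronal markers only Snap25 had counts, with at most 11.6 CPM in a library. Of 4 microglial markers 2 had counts, with 63.9 to 136 CPM in the controls and 45.3 to 58.1 CPM in the clones, and Cx3cr1 and Ptprc were at 0. Nearly all of this sum was Csf1r, whose counts are uncertain for the reason given at the end. The same holds for Mog, Olig2 and Gpr17 in the oligodendroglial sum, and to a lesser degree for Olig1 and Nkx2-2. Of 6 fibroblast markers 3 had counts, with 399.6 to 426.5 CPM in the controls and 192.5 to 325.2 CPM in the clones, and Col1a2, Lum and Dcn were at 0. All 5 Schwann cell markers had counts, with 1134 to 1151 CPM in the controls and 113 to 290.4 CPM in the clones. These differences move with the groups, and their part in the results below was not tested. RNA was measured in bulk, so that fewer cells expressing a gene and less RNA per cell cannot be told apart.

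The promoters of genes on which the results turn are shown to give the sequence context. For 32 of the 38 genes a promoter window of 300 bases was found in RefSeq (assembly GRCr8, not the build of the counts), from 250 bases before the annotated start site. The 250 bases upstream of the start sites of Hmgcs1 and Scd2, both called lower in the clones, and of Fads2 are given 5′ to 3′ along the strand of the gene. Capitals mark the letters CCAAT, or ATTGG where CCAAT lies on the opposite strand. CCAAT is the box bound by NF-Y, a factor known to act together with SREBP. Hmgcs1 lies at chr2:53382054-53382303 (plus strand), Scd2 at chr1:253118127-253118376 (plus strand) and Fads2 at chr1:216172034-216172283 (minus strand).
Hmgcs1: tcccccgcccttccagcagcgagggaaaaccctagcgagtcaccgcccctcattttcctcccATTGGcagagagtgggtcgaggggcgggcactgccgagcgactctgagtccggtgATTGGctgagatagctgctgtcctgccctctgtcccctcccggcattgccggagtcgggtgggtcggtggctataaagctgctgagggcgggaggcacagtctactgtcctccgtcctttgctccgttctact
Scd2: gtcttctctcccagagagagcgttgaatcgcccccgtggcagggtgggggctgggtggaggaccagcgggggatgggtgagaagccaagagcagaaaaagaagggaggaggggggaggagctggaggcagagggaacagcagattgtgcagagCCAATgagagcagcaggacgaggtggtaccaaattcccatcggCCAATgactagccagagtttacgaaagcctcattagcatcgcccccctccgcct
Fads2: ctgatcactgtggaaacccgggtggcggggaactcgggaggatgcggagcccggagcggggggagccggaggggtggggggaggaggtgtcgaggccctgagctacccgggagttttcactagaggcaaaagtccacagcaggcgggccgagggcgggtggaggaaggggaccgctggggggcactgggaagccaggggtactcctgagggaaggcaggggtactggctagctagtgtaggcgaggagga

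Counted from the start site, the boxes of Hmgcs1 ran from -188 to -184 and from -133 to -129, both on the opposite strand. Those of Scd2 ran from -97 to -93 and from -54 to -50 on the strand of the gene. The stretch of Fads2 held none. Over the whole window, CCAAT was found on either strand in 24 of 32 member promoters (75%), against 37.7% of 27457 RefSeq promoters and 39.0% of 1889 promoters of genes tested here. All 5 matched promoters of the mevalonate arm held it, and 7 of 9 between squalene and cholesterol. The letters TCACNCCAC, a strict form of the core of the sterol regulatory element, were in none of the 32 windows and in 1.13% of all promoters. At a share this low, finding none in 32 windows shows nothing about these genes. No window was found for Pmvk, Fdft1, Sqle, Acaca, Fasn and Elovl6. The letters ACAANG, with N for any base, are a loose form of the core that Sox proteins bind. They were in 9 of the 32 windows (28.1%), against 41.5% of all promoters and 30.1% of those of tested genes. No matches of different motifs overlapped in these windows. The median GC content was 65.2% in the members' windows, 62.7% in those of tested genes and 52.3% in all, and its part in these shares was not tested. A match is a description of the sequence and does not show binding.

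Of the 38 genes, 16 had enough counts to be tested, a further 17 had counts but too few, and 5 had 0 counts in every library. Hmgcs1, which makes the precursor of mevalonate, and Scd2, a stearoyl-CoA desaturase, were at least 2-fold lower in the Sox10-deficient clones. Both were called with an unadjusted and with an adjusted p of 0.05 or less, so that 2 of 16 tested genes were called lower. Over all 2438 tested genes, 6.97% were called lower with the unadjusted and 2.5% with the adjusted p. No tested member was called higher by edgeR at either threshold, where 4.63% and 1.11% of all genes were, and DESeq2 called none higher either. Regardless of fold change, 4 of 16 had an unadjusted p of at most 0.05 against 14.7% of all genes, with Fasn and Fads2 beside Hmgcs1 and Scd2. The fitted log2 fold change was below 0 for 14 of 16 tested members and for 50.5% of all tested genes. In 10 of the 16 both clones lay below both controls, which was so for 21.4% of all tested genes, and in none did both clones lie above, against 21.6%. The median log2 fold change was -0.63 over the 16 members and -0.0059 over all tested genes. Without control 1 this median was -0.29. Many of the 16 genes share pathways, so that they cannot be taken as independent of each other.

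**Figure D1:**
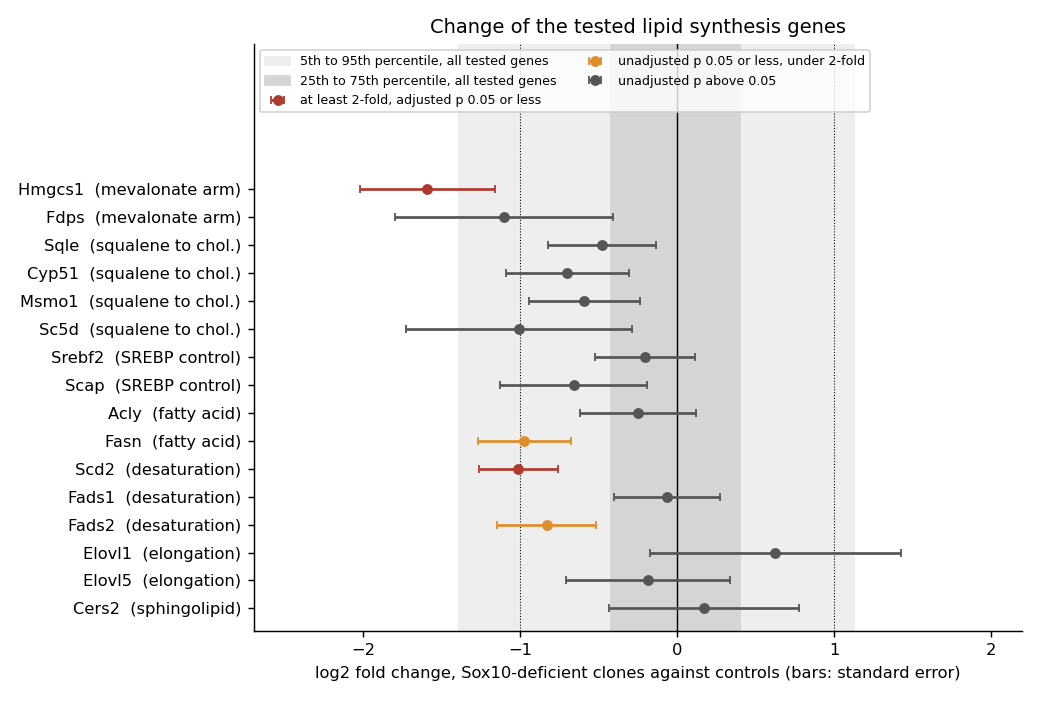
Log2 fold change (x axis) of the 16 tested lipid synthesis genes (y axis) in the Sox10-deficient clones against the controls, with bars for the standard error (n = 2 libraries per group), dotted lines at 2-fold and grey bands for percentiles over all 2438 tested genes. Points for Hmgcs1, Fdps, Sc5d and Scd2 lie past the line of a 2-fold decrease, of which Hmgcs1 and Scd2 passed the test, and 14 of the 16 points lie below 0.

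In the mevalonate arm, the summed level had a log2 ratio of the group means of -1.18, and of -0.69 without control 1. Hmgcs1 had 31 and 33 counts in controls 1 and 2 and 10 and 13 counts in clones A and B, or 496 and 320 CPM against 116 and 147 CPM. Both clones lay below both controls. The mean (± SD, n = 2) fell from 408 ± 124 to 132 ± 22.0 CPM, for a log2 fold change of -1.59 (SE 0.43, edgeR adjusted p = 0.0469). The 95% interval of this log2 fold change ran from -2.49 to -0.69. The call by the adjusted p was narrow, since DESeq2 gave the gene an adjusted p of 0.348 at a log2 fold change of -1.61.

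Fdps, the farnesyl diphosphate synthase at the end of the mevalonate arm, was the other gene of this arm with enough counts. It had 336 and 87.2 CPM in the controls and 46.5 and 136 CPM in clones A and B. The groups overlapped, and control 1 alone stood high. Its log2 fold change of -1.10 (SE 0.69, edgeR adjusted p = 0.521) turned to 0.068 without control 1. Idi1, the isomerase that supplies the units joined by Fdps, had 7 and 11 counts as control and 8 and 4 after loss of Sox10, too few to be tested. Mvd, which decarboxylates mevalonate diphosphate, had 4 and 3 counts as control and none in either clone. The control mean of Mvd lay 1.35-fold above the clones' floor of 3 counts per library. As control 2 itself had 3 counts, this sets no lower limit on the decrease. When genes were not filtered, the unadjusted p of Mvd was 0.0313 and its adjusted p 0.578 in edgeR's test. The mevalonate kinase Mvk (2 and 4 counts in the controls, 7 and 1 in the clones) and the phosphomevalonate kinase Pmvk (3 and 2 against 6 and 0) had higher counts in clone A than in clone B.

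The counts of the 6 genes of the mevalonate arm summed to 68 and 62 for controls 1 and 2, against 35 and 30 for the clones. This amounted to 1087 and 601 CPM for the controls and 407 and 340 CPM for the clones. The lower control lay 1.48-fold above the higher clone, whereas the controls themselves differed 1.81-fold. Hmgcs1 gave 44.6% of these counts, and without it the groups overlapped, at 591 and 281 CPM in the controls and 290.4 and 193 CPM in the clones.

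Between squalene and cholesterol, 4 of 11 genes were tested and none was called by edgeR, with an unadjusted p of 0.05 or less for none of them. All 4 had fitted values below 0, with a median log2 fold change of -0.65. Sqle, the squalene epoxidase, had 368 and 485 CPM in the controls and 337 and 283 CPM in clones A and B. Msmo1, which removes methyl groups from sterol intermediates, had 528 and 446 CPM in the controls and 232 and 408 CPM in the clones. Cyp51, the lanosterol demethylase, had 575 and 291 CPM in the controls and 267 and 249 CPM in the clones. In all 3 genes both clones lay below both controls, but by little, and the log2 fold changes were -0.48, -0.59 and -0.70 with standard errors of 0.34, 0.36 and 0.39. Their 95% intervals reached from -1.21 to 0.24 for Sqle, from -1.34 to 0.16 for Msmo1 and from -1.53 to 0.13 for Cyp51, which include both no change and a decrease of 2-fold.

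Sc5d, a sterol desaturase late in the pathway, varied most among them, with 336 and 87.2 CPM in the controls and 163 and 34.0 CPM in the clones. Clone A lay above control 2, and the log2 fold change of -1.01 (SE 0.72, edgeR adjusted p = 0.591) turned to 0.16 without control 1. The squalene synthase Fdft1 had 18 counts in control 1 but only 4 in control 2, against 7 and 8 in clones A and B. Here too control 1 stood alone. Tm7sf2, a sterol reductase, had 7 and 4 counts as control and 2 in each clone. Dhcr7, the reductase of the final step on one branch, had 3 and 7 counts as control and 1 and 8 after loss of Sox10. Lss, which makes lanosterol, and Nsdhl, Hsd17b7 and Ebp, which act on later sterols, had at most 5 counts in any library. No difference was detectable at this depth for these 4 genes.

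Summed over its 11 genes, this branch had 2350 and 1512 CPM in the controls and 1162 and 1325 CPM in clones A and B. Both clones lay below both controls, with the lower control 1.14-fold above the higher clone. The controls differed 1.55-fold, and the log2 ratio of the group means moved from -0.64 to -0.28 without control 1. Over all 17 genes of sterol synthesis the sums were 3437 and 2113 CPM in the controls and 1568 and 1665 CPM in the clones. The log2 ratio of the group means was -0.78, and -0.39 without control 1.

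**Figure D2:**
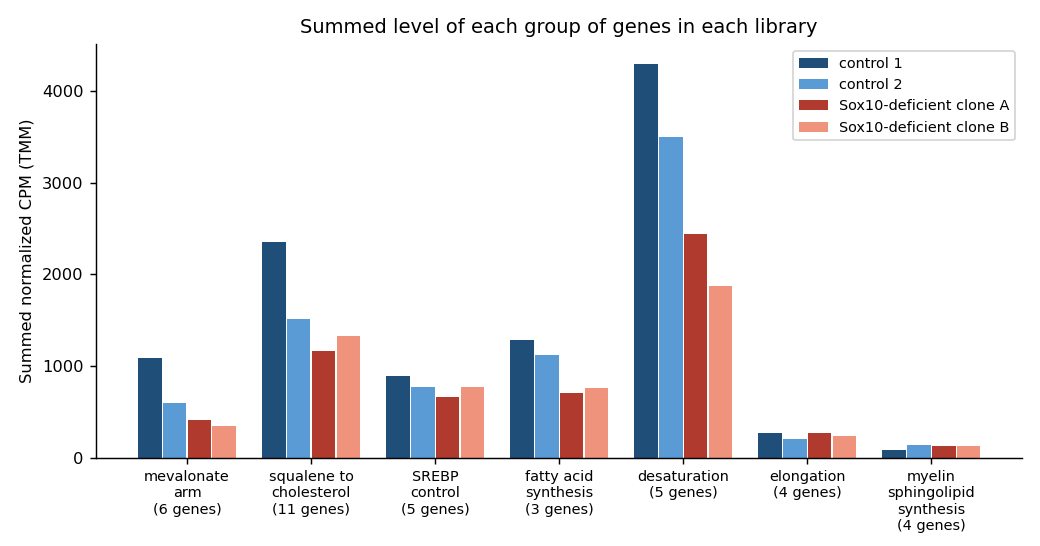
Summed normalized CPM (y axis, from 0) of the genes of each step of lipid synthesis (x axis, with the number of genes summed), 1 bar per library. The sums of both clones lie below those of both controls for the mevalonate arm, squalene to cholesterol, fatty acid synthesis and desaturation, and control 1 lies 1.55-fold to 1.81-fold above control 2 in both sterol groups.

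The regulators of the pathway were tested for Srebf2 and Scap. Srebf2, the SREBP gene that mainly serves cholesterol synthesis, had 36 and 44 counts as control and 36 and 39 after loss of Sox10. In CPM this was 575 and 427 against 418 and 442, with control 2 between the clones. Its log2 fold change was -0.20 with a 95% interval from -0.87 to 0.47, so that a decrease of 2-fold lay outside the interval. Scap had 224 and 213 CPM in the controls and 139 and 136 CPM in the clones. Both pairs were tight and did not overlap, but with 12 counts in each clone the log2 fold change of -0.66 had a standard error of 0.47 (edgeR adjusted p = 0.589). Insig1, itself a target of SREBP, had 4 and 5 counts as control and 3 and 6 after loss of Sox10. Insig2 had 0 and 1 counts as control and 0 and 3 after loss of Sox10. No difference was detectable for either at this depth. Srebf1, which mainly serves fatty acid synthesis, had 2 and 7 counts as control and 6 and 8 after loss of Sox10, and its count is uncertain for the reason given at the end.

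In fatty acid synthesis, Fasn, the fatty acid synthase, had 49 and 71 counts as control and 32 and 33 after loss of Sox10. The levels were 783 and 688 CPM in the controls and 372 and 374 CPM in the clones. Clones and controls were well apart, and each pair was close together. The log2 fold change of -0.98 (SE 0.30, edgeR adjusted p = 0.0860) stayed just under 2-fold and above the adjusted threshold, and its unadjusted p was 0.00434. It ranged from -1.08 to -0.88 over the 10 alternatives. Acly, which supplies cytosolic acetyl-CoA for fatty acids and sterols alike, had 288 and 359 CPM in the controls and 267 and 283 CPM in the clones. Its highest clone and lowest control were nearly equal, and the log2 fold change was -0.25 (SE 0.37). Acaca, the carboxylase that makes malonyl-CoA, had 13 and 8 counts as control and 6 and 9 after loss of Sox10 and was not tested. Together the 3 genes had 1279 and 1125 CPM in the controls and 709 and 759 CPM in the clones, with the lower control 1.48-fold above the higher clone. Fasn gave 57.1% of these counts, and without it the log2 ratio of the group means moved from -0.71 to -0.37.

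Scd2, one of the desaturases that introduce the first double bond into saturated fatty acids, held 25.7% of all counts of the 38 genes. It had 172 and 235 counts as control and 119 and 98 after loss of Sox10. In CPM, 2750 and 2278 in the controls stood against 1382 and 1110 in the clones, with no overlap. The mean (± SD, n = 2) fell from 2514 ± 333 to 1246 ± 193 CPM. The log2 fold change was -1.01 (SE 0.25, edgeR adjusted p = 0.0323) with a 95% interval from -1.55 to -0.48. As the estimate lay at the threshold of 2-fold, small shifts ended the call, with values of -0.98 without the filter on low counts, -0.87 without control 1 and -0.87 without clone B. DESeq2 gave an adjusted p of 0.0801. Scd1, the paralogous desaturase, had 7 and 8 counts as control and 3 and 4 after loss of Sox10 and was not tested. Reads that fit both Scd genes would be lost from a count of unique mappings.

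The Fads genes desaturate polyunsaturated fatty acids, and Fads2 and Fads3 are neighbours in the RefSeq annotation. Fads2, the first of these enzymes in the pathway, had 49 and 60 counts as control and 38 and 28 after loss of Sox10, or 783 and 582 CPM against 441 and 317 CPM. Both clones lay below both controls, and the log2 fold change was -0.83 (SE 0.32, edgeR adjusted p = 0.198). Its unadjusted p was 0.0177. Fads1, the next desaturase, had 575 and 378 CPM in the controls and 523 and 374 CPM in the clones. The groups overlapped, with a log2 fold change of -0.064 and a 95% interval from -0.77 to 0.65. The difference between Fads1 and Fads2 was not tested. Fads3, whose substrate preference differs from that of Fads1 and Fads2, had 5 and 19 counts as control and 5 and 2 after loss of Sox10. When genes were not filtered, its unadjusted p was 0.0266 and its adjusted p 0.529 in edgeR's test. Its counts, which also enter the sums below, are uncertain for the reason given at the end. The 5 desaturases together had 4300 and 3499 CPM in the controls and 2439 and 1869 CPM in the clones, and without Scd2 the sums were 1551 and 1221 CPM against 1057 and 759 CPM.

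**Figure D3:**
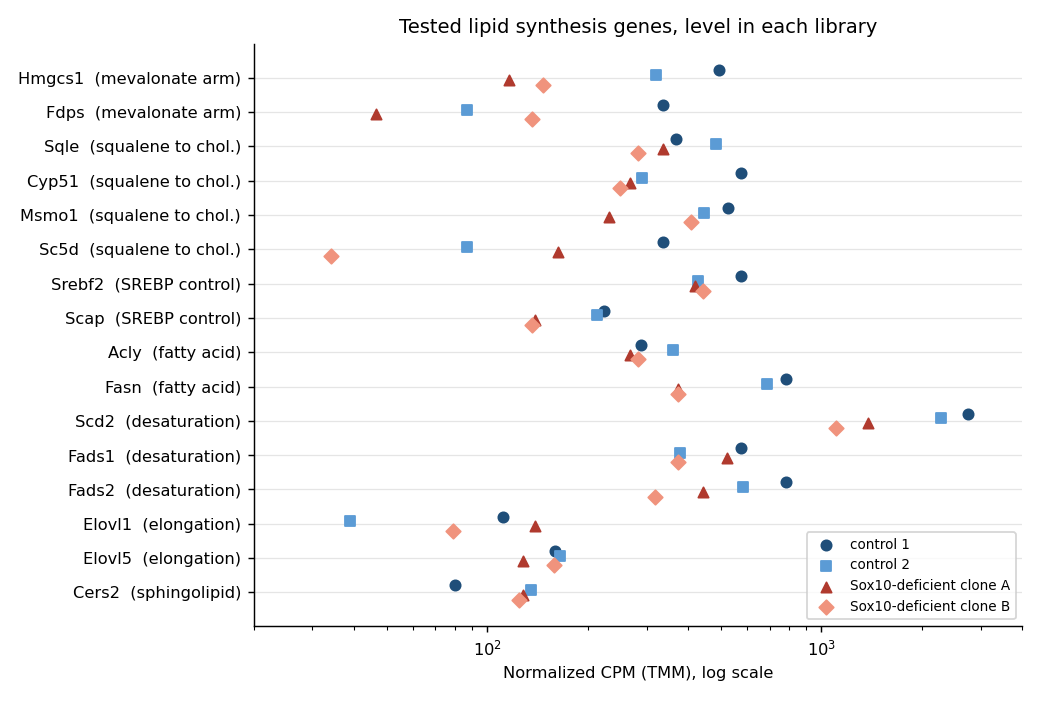
Normalized CPM on a log scale (x axis) of the 16 tested genes (y axis, with their step in lipid synthesis) in each of the 4 libraries, 1 symbol per library, shifted slightly up or down for legibility. In Hmgcs1, Fasn, Scd2 and Fads2 both clones lie left of both controls, whereas in Fdps and Sc5d the groups overlap and control 1 is highest.

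Of the elongases, Elovl1 and Elovl5 could be tested. Elovl5, which extends polyunsaturated fatty acids, had 160 and 165 CPM in the controls and 128 and 159 CPM in clones A and B, and the log2 fold change was -0.19 (SE 0.52). Elovl1, which extends very long saturated and monounsaturated chains such as those of myelin sphingolipids, had 7 and 4 counts as control and 12 and 7 after loss of Sox10. Its log2 fold change of 0.62 (SE 0.80) turned to -0.046 without control 2. It was the only tested member with fewer than 10 counts in both libraries of a group. Elovl6 and Elovl7 had 0 counts in every library. The summed level of the 4 Elovl genes was 272 and 204 CPM in the controls and 267 and 238 CPM in the clones, with overlap.

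The synthesis of myelin sphingolipids was barely represented. Cers2, the ceramide synthase that makes ceramides with very long chains, was the single gene of this step with counts. It had 79.9 and 136 CPM in the controls and 128 and 125 CPM in clones A and B. The clones lay between the controls, with a log2 fold change of 0.17 (95% interval from -1.10 to 1.44). Fa2h, which hydroxylates the fatty acids of galactolipids, Ugt8, which makes galactosylceramide, and Gal3st1, which turns galactosylceramide into sulfatide, had 0 counts in every library. A count of 0 allows a level of up to 29.1 CPM in the deepest and 48.0 CPM in the shallowest library. These 3 enzymes belong to the differentiating, myelin-forming stage, and nothing can be said here of their change after the loss of Sox10.

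Among the 17 genes that had counts but were not tested, the mean level was lower in the clones for 10 and higher for 7. Together with the tested genes, 24 of the 33 genes with counts had a lower mean level in the clones, against 48.7% of all 10024 genes with counts. The largest total over the 4 libraries of a gene that was not tested was 37 counts, for Fdft1.

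**Figure D4:**
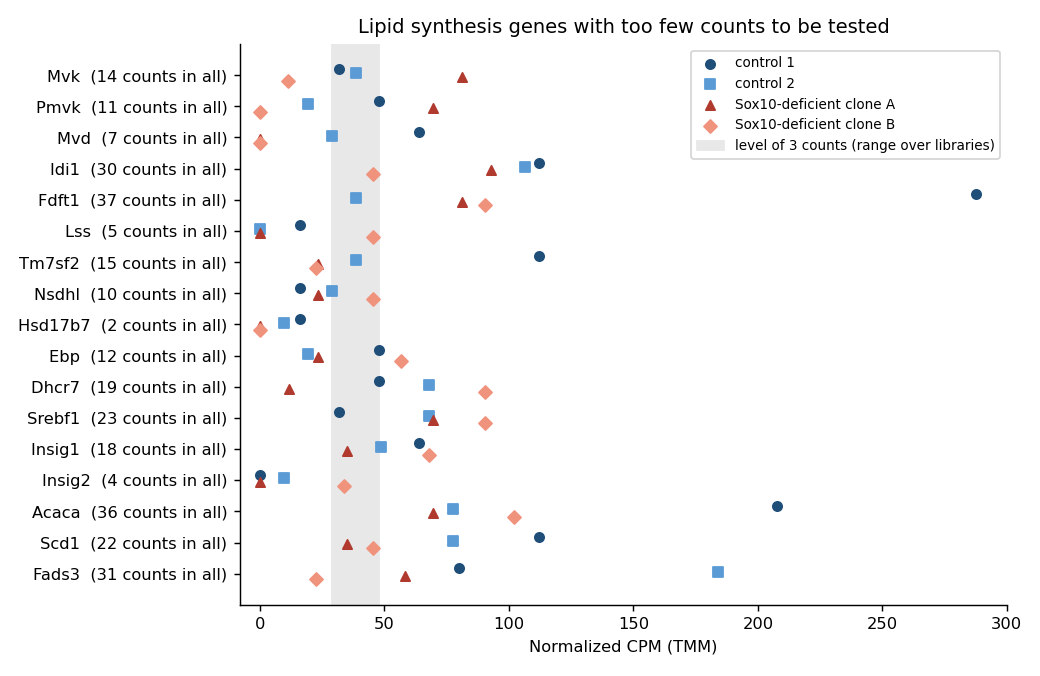
Normalized CPM (x axis) of the 17 genes with counts that were too few to be tested (y axis, with the count summed over the 4 libraries), 1 symbol per library. The grey band marks the level of 3 counts, 29.1 to 48.0 CPM depending on the library. Control 1 stands highest in Fdft1 and Acaca, and control 2 in Fads3.

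Other genes of lipid synthesis were examined from a list of 57 genes for sterol handling, fatty acid supply and sphingolipid synthesis, 55 of which have a row in the counts. Only 8 could be tested. By edgeR's test none was at least 2-fold lower or higher with an unadjusted p of 0.05 or less or with an adjusted one, and DESeq2 called none by its unadjusted p. Regardless of fold, 1 of the 8 had an unadjusted p of at most 0.05, against 14.7% of all tested genes, namely Sgms1, a sphingomyelin synthase that was named after its values were seen. Sgms1 had 272 and 281 CPM in the controls and 499 and 521 CPM in clones A and B. Both clones lay above both controls, and the log2 fold change was 0.87 (SE 0.33, edgeR adjusted p = 0.197). Its unadjusted p was 0.0175, and its deposited counts were 4.49 times what the comparison with the authors' mean, given at the end, would give. The acyl-CoA synthetases Acsl3 and Acsl4, which activate fatty acids, were also named after their values were seen, and had values of -1.17 (SE 0.58) and -0.85 (SE 0.42) at unadjusted p-values of 0.0588 and 0.0615. In both, the clones lay below the controls. Both clones lay above both controls in Acsl5, at a log2 fold change of 0.26, and in Acsl1, which had 2 and 3 counts as control and 7 and 11 after loss of Sox10 and was not tested. Acsl5, Degs1, Hacd3, Tecr and Asah1 lay between -0.58 and 0.26. The median over the 8 genes was -0.30, and 24 of 49 listed genes with counts had a lower mean in the clones, against 48.7% of all genes with counts.

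The deposited counts were compared with the mean normalized count that the authors' table gives for each gene over the libraries, which rests on far more reads. For 5353 genes with an authors' mean of at least 500, the deposited count per library was 0.384% of that mean in the median. Most members with an authors' mean lay near this share, from 0.223 times the median for Hsd17b7 to 2.67 times for Sqle. Srebf1, with an authors' mean of 45, and Fads3, with an authors' mean of 12, had 33.3 and 168 times as many deposited counts as this share would give. The counts of these 2 genes are thus uncertain, and which reads they hold was not tested. Among the marker genes the same was so for Csf1r, at 130 times the median share, and for Mog, with 54 counts in all and an authors' mean of 0. The authors' mean was 95 for Fa2h, 17 for Gal3st1 and 8 for Ugt8, against 13251 for Fasn and 10529 for Srebf2. Among the genes that were called or near the threshold, Hmgcs1 lay at 1.44 times, Fasn at 0.909 times and Fads2 at 1.51 times the median share, whereas Scd2 could not be matched by symbol in that table.

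**Figure D5:**
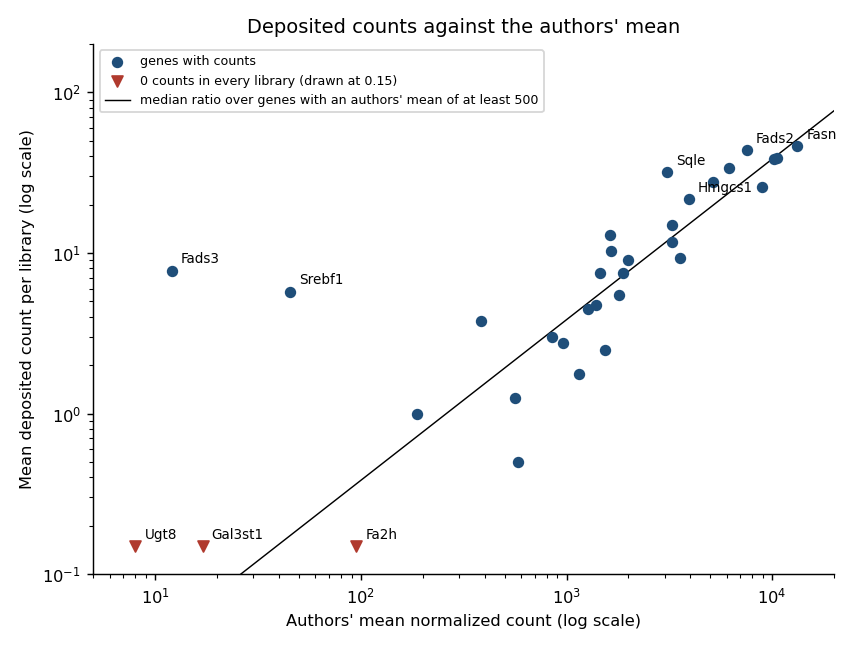
Mean deposited count per library (y axis, log scale) against the authors' mean normalized count (x axis, log scale), 1 point per gene, for the members that the authors' table lists once with a mean above 0. The line is the median share of 0.384%. Srebf1 and Fads3 lie far above it, and Fa2h, Gal3st1 and Ugt8 had 0 counts.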

How the data were processed

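RNA-Seq libraries, made with a stranded mRNA kit, came from OLN93 cells (2 controls, 2 clones lacking Sox10). According to the study's methods and the submitters' processing notes, the authors used STAR 2.5.1 for mapping to rn5 and counted unique mappings with HTSeq. They deposited raw counts per gene symbol without normalization. The strand option of the counting is not given in the sources used here. A table of the authors holds a mean normalized count over all libraries, deposited as whole numbers and treated as a score. Its fold changes, standard errors, Wald statistics and p-values are the authors' own comparison and were not used.

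The quasi-likelihood test of edgeR 4.0.16 (R 4.3.3; genes kept by filterByExpr, TMM factors) was run on condition alone, over 2438 genes with Benjamini-Hochberg adjustment. Calls needed a 2-fold change and a p, unadjusted or adjusted, not above 0.05. Standard errors were derived from the F statistic, and 95% intervals from the same fit. P-values measure the spread between these libraries only. Within each pair, the libraries differed by more than counting noise (chi-square per degree of freedom 2.19 for the controls and 2.20 for the clones), so that all 4 were kept as separate samples. The script was tested on simulated data.

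Members and lists were chosen with earlier results of these data known. All members were named, with full statistics where called or where they carried most counts of their step, and other lipid genes only where called at 2-fold and an unadjusted p of 0.05, or as stated. Levels were not compared between genes per length, because no coding lengths were at hand. Promoters were read from RefSeq (GRCr8), matching Scd1 through its synonym. Alternatives were DESeq2 1.42.0, its size factors, library totals, unfiltered genes, a minimum of 10 counts per library, a replicate block, and leaving out each library. Leaving out control 1 for the sums was added after seeing the data. Python 3.11.15 was used for tables and figures.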

Additional observations from a re-analysis of the deposited data

How the results depend on the processing

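By the unadjusted p, 2 members were called lower with DESeq2, with its size factors and with library totals. The same number was called with at least 10 counts in every library and with the replicate block. Without a filter 3 were called, namely Hmgcs1, Mvd and Fads3, while Scd2 fell short of 2-fold at -0.98. Mvd had 7 counts in all, and those of Fads3 are uncertain. By the adjusted p, 2 were called with library totals, 1 with DESeq2's size factors, and 0 with DESeq2, without a filter and with at least 10 counts in every library. Without a filter Scd2 kept an adjusted p of 0.0349 in edgeR and missed the call on fold alone, whereas Hmgcs1 had 0.0564. With at least 10 counts in every library, Hmgcs1 and Scd2 had adjusted p-values of 0.0585 and 0.0602 in edgeR. Why the p-values shifted was not tested. With the replicate block, 1 was called by the adjusted p, as that of Hmgcs1 rose to 0.135. Same-numbered libraries share only a number, and their deviations from the group means had a correlation of 0.125 over the tested genes. Leaving out each library in turn gave 1 to 7 members lower by the unadjusted and 0 to 2 by the adjusted p, and 0 to 1 of the other lipid genes by the unadjusted p. The extremes of 1 and 7 came from leaving out control 1 and control 2, and 4 were lower without clone A. By the adjusted p none was called without control 1, clone A or clone B. Their median log2 value then ran from -0.71 to -0.29, the latter without control 1. Log2 fold changes that changed sign ranged from -2.07 to 0.068 for Fdps, -2.49 to 0.16 for Sc5d, -0.43 to 0.011 for Srebf2, -0.37 to 0.24 for Fads1, -0.10 to 0.64 for Cers2 and -0.046 to 1.46 for Elovl1. Hmgcs1 stayed between -1.91 and -1.27, with adjusted p-values from 0.00738 to 0.348, and Scd2 between -1.18 and -0.87, with adjusted p-values from 0.00778 to 0.247. The log2 ratio of summed levels moved to -0.37 for fatty acid synthesis without Fasn and to 0.54 for elongation without Elovl5. For myelin sphingolipid synthesis, which rests on Cers2 alone, it turned from 0.23 to -0.11 without control 1. No member was called higher in any of these fits. With at least 10 counts in every library 12 members could be tested. At this depth 22 of the 38 members could not be tested. A library left alone in its group was assumed to vary like the other group.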
